A study of Mus musculus with 15 samples.

Results

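The 10 genes described here are regulators of the G1 phase of the cell cycle, followed across 5 groups of cultured mouse B cells: the D-type cyclins Ccnd2 and Ccnd3, the E-type cyclins Ccne1 and Ccne2, the cyclin-dependent kinases Cdk4 and Cdk6, and the kinase inhibitors Cdkn1a, Cdkn1b, Cdkn2c and Cdkn2d. They were chosen by symbol, with earlier results of these data known, as 10 of the 51912 genes in the deposited RNA-seq table. All 10 passed the filter on low counts, which left 15692 genes.

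Wild-type B cells, whose labels enter no treatment, spent 6 days on a layer of 40LB cells, a fibroblast feeder line made to carry CD40 ligand and BAFF, with 100 ng/ml of IL-4, and 3 bulk, unsorted libraries were made on day 6. The other cells were moved off this layer, held in RPMI for 2 more days with no stimulus and sorted on day 8. The sort gave IgE and IgG1 cells that had become plasma cells (IgE PC and IgG1 PC) and IgE and IgG1 cells that had not, which the labels call iGC, with 3 libraries in each of these 4 groups. By its title, the study asked what controls how IgE cells become plasma cells and survive. The design text names independent biological replicates, but no mouse strain, age or sex is given in the labels, nor whether libraries with the same replicate number share an animal or a culture. Day 8 groups differ from the day 6 culture in time, feeder cells, stimulus and sorting at once, and these cannot be told apart.

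In G1, D-type cyclins bind Cdk4 and Cdk6 and the active pairs phosphorylate the retinoblastoma family of pocket proteins, which releases E2F factors to switch on genes for DNA replication; E-type cyclins with Cdk2 then complete the step into S phase. Inhibitors of the INK4 family, such as p18 (Cdkn2c) and p19 (Cdkn2d), bind Cdk4 and Cdk6 alone, whereas the CIP/KIP proteins p21 (Cdkn1a) and p27 (Cdkn1b) bind cyclin-kinase complexes and block those with Cdk2. B cells divide rapidly under CD40 and cytokine signals and leave the cycle as they become plasma cells, for which p18 is known to be needed.

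Levels are given as CPM, a count set against the size of its library, with library sizes scaled by TMM, a method that brings libraries to a common level over most genes, and changes as log2 fold changes with their standard error (SE). Adjusted p-values are from edgeR's quasi-likelihood test with Benjamini-Hochberg adjustment over all 15692 genes, and a gene is called below 0.05. Library totals ran from 17.7 M to 54.1 M expected counts, which are estimates of the reads of each gene, and the counts of the 10 genes from 182 to 46029 per library. All 12 plasma cell markers rose from iGC to PC in both isotypes, and 12 of 12 B cell markers fell in IgE and 11 of 12 in IgG1, as the labels have it. The 2 plasma cell groups were not alike in these markers. In IgE PC 10 of 12 plasma cell markers were called higher than in IgG1 PC (median 0.78), and 7 of 12 B cell markers lower (median -0.81). Fibroblast markers, which the feeder cells would carry, summed to 157 to 217 TPM on day 6, 32.7 to 42.2 in IgE iGC, 27.5 to 39.2 in IgG1 iGC, 7.5 to 11.0 in IgE PC and 30.9 to 63.9 in IgG1 PC, over 12 genes of which 0 to 2 were at 0 throughout a group. T cell markers summed to 1.4 to 5.81 TPM and myeloid markers to 0.31 to 4.04 TPM in all libraries. The 3 IgG1 PC libraries were the least alike of any group, with a chi-square per degree of freedom of 30.1 to 104 between pairs against 4.82 to 25.8 elsewhere, and immunoglobulin genes took 21.7%, 15.3% and 16.1% of their counts. Scaling by total count in place of TMM lowered the median of all genes from -0.08 to -0.55 in IgE PC against IgE iGC, from 0.01 to -0.22 in IgG1 PC against IgG1 iGC and from -0.05 to -0.30 in IgE PC against IgG1 PC. In log2 TPM these 3 medians were -0.49, -0.42 and -0.11. Against day 6 the median in log2 TPM was -0.59 in IgE PC and -0.47 in IgG1 PC, where TMM gave -0.04 and 0.01. Values of single genes in these settings carry such shifts of all genes.

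**Figure D1:**
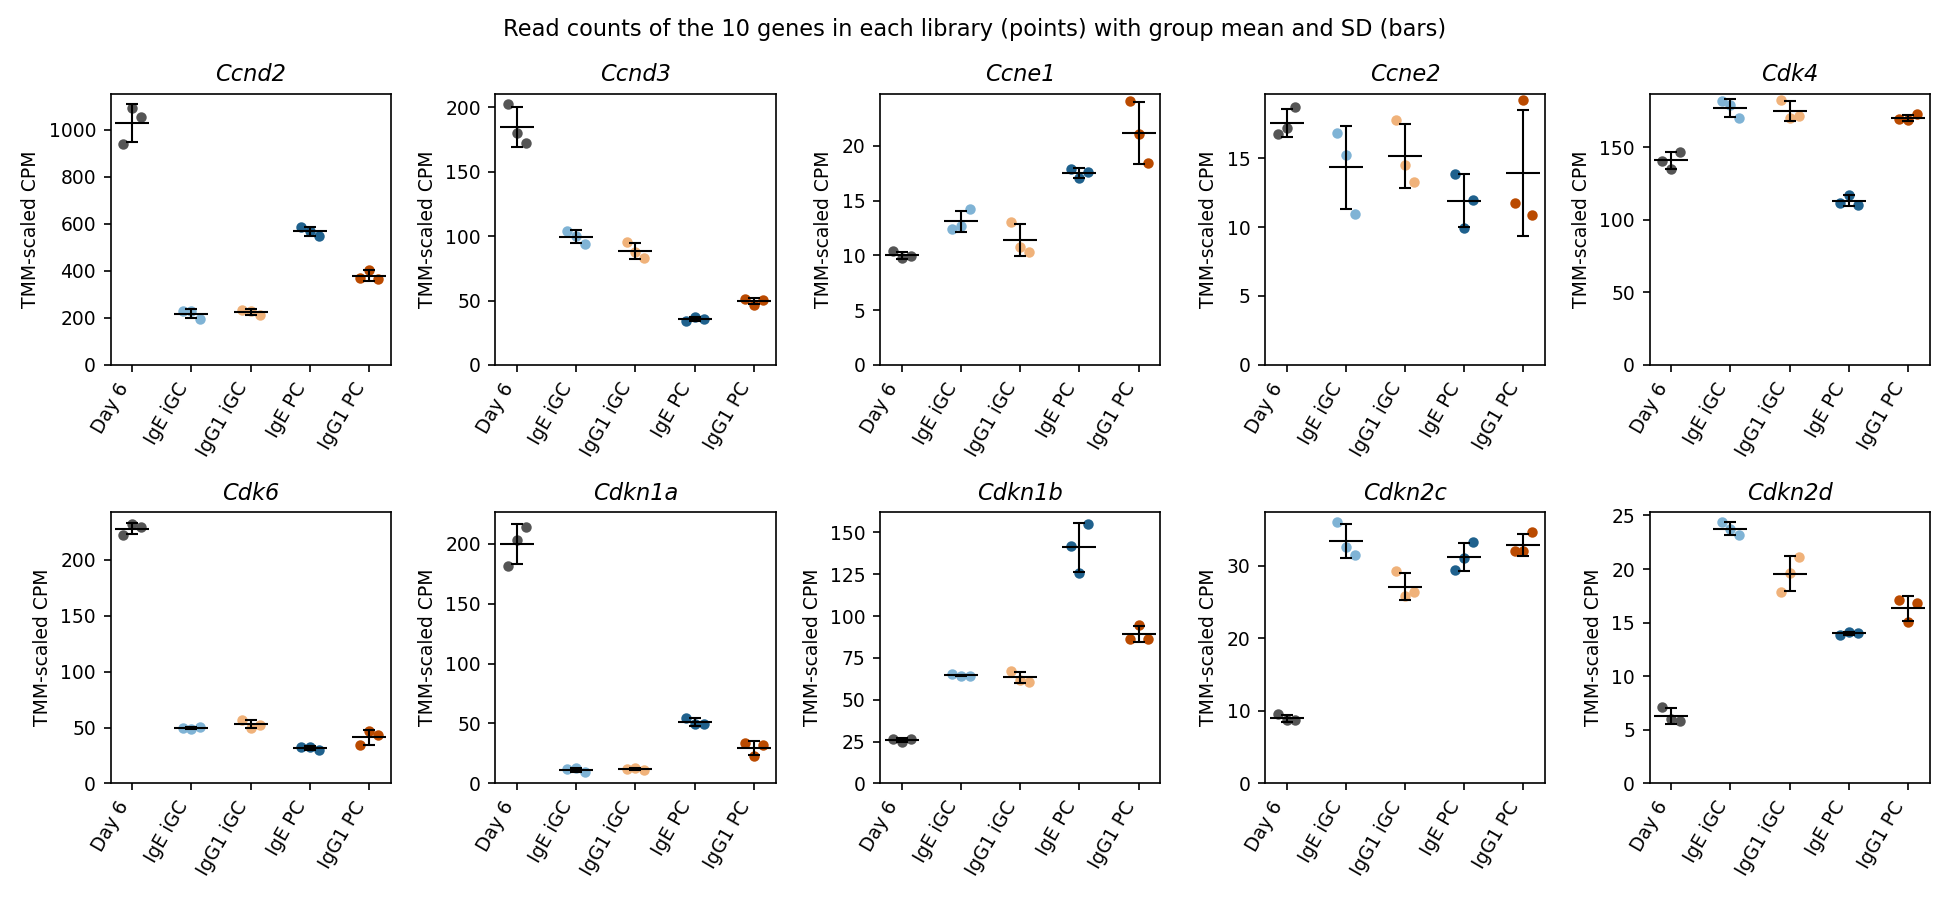
TMM-scaled counts (CPM, linear axis from 0) of the 10 genes in each of the 15 libraries (points), with the mean and SD of the 3 libraries of each group (bars). Ccnd2, Ccnd3, Cdk6 and Cdkn1a are highest on day 6, Cdkn1b, Cdkn2c and Cdkn2d are lowest there, and Cdk4 is lowest in IgE PC.

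Between the day 6 culture and the day 8 groups nearly all of the 10 genes moved, in a mixed pattern: Cdkn1a, Cdk6, Ccnd2 and Ccnd3 fell in all 4 day 8 groups, and Cdkn1b, Cdkn2c and Cdkn2d rose in all 4. Of the 10, 9 were called in IgE iGC, 5 higher and 4 lower, where 69.1% of all genes tested were called, 32.8% higher and 36.3% lower. In IgG1 iGC 8 were called, 4 higher and 4 lower, against 68.4% of all genes, 32.4% higher and 36% lower. In IgE PC all 10 were called, 4 higher and 6 lower, against 76.4% of all genes, 36.9% higher and 39.5% lower, and in IgG1 PC 9, 5 higher and 4 lower, against 71.9%, 35.9% higher and 36% lower. These 4 comparisons share the day 6 libraries. The number called is thus close to what the share of all genes gives, and the changes stand out by size only in part: the fall of Cdkn1a in IgE iGC was larger than the change of 98.1% of genes tested and that of Cdk6 larger than 89.3%, whereas the change of Cdk4 was larger than 30.2%. The fibroblast markers fell in the same direction as the 4 falling genes, with 8 of 10 tested lower in IgE iGC, and their part in these results was not tested. In bulk libraries, fewer cells that express a gene and less RNA per cell cannot be told apart.

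In the 10 genes the iGC cells of the 2 isotypes were close to each other. Only Cdkn2c was called (1 of 10, higher in IgE, where 3.87% of all genes were called, 1.99% higher and 1.88% lower), and for the other 9 genes the log2 difference IgE minus IgG1 ran from -0.12 to 0.28. That call was lost when IgE iGC replicate 1 or 2 or IgG1 iGC replicate 2 or 3 was left out, with total-count scaling and in log2 TPM. The plasma cell markers were less alike. Of 12, 5 were called higher in IgE iGC (median 0.49) and 7 were not called, and 0 of 12 B cell markers were called. Plasma cell markers summed to 847 to 927 TPM in IgE iGC and to 514 to 539 in IgG1 iGC. The part of this difference in the plasma cell steps was not tested.

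On the step from iGC to plasma cell, Ccnd2, Cdkn1a and Cdkn1b rose, and Ccnd3, Cdk6 and Cdkn2d fell, in both isotypes. In IgE 8 of 10 were called, 4 higher and 4 lower, where 64.1% of all genes were called, 30.5% higher and 33.6% lower. In IgG1 8 of 10 were called, 5 higher and 3 lower, where 59.1% of all genes were, 30.1% higher and 29% lower. Total-count scaling changed these splits to 3 higher and 6 lower in IgE and 4 and 4 in IgG1. The size of the step differed between isotypes for 8 of the 10 genes by the interaction term of the fit, 3 more positive and 5 more negative in IgE, where 42.9% of all genes were called, 19.8% and 23.1%; the 2 not called were Ccne2 and Cdk6. The interaction uses the same 12 libraries as the steps themselves. For Ccnd2, Ccnd3, Cdkn1a, Cdkn1b and Cdkn2d the step had the same sign in both isotypes and was larger in IgE, for Ccne1 it was larger in IgG1, for Cdk4 it was called in IgE and not in IgG1 and for Cdkn2c in IgG1 and not in IgE. These last calls changed with the setting: Cdk4 was called lower in both isotypes with total-count scaling and in log2 TPM, and Cdkn2c was called lower in IgE but not called in IgG1 with total-count scaling, and called lower in both in log2 TPM. In log2 TPM the rises of Ccnd2 (0.47) and Cdkn1b (0.43) at the IgE step were smaller, and the falls of Cdk4 (-1.36), Cdk6 (-1.34) and Cdkn2d (-1.41) larger, all of them called. Fibroblast markers moved with the step as well: 8 of 10 tested rose in IgG1 (median 1.80) and 1 fell in IgE (median -0.90), and in the interaction 9 of 10 were lower (median -2.64), as were 3 of 3 myeloid markers (median -2.11). In the interaction 5 of 12 plasma cell markers were also called higher and 2 lower, and 8 of 12 B cell markers lower. The part of these marker differences in these results was not tested.

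**Figure D2:**
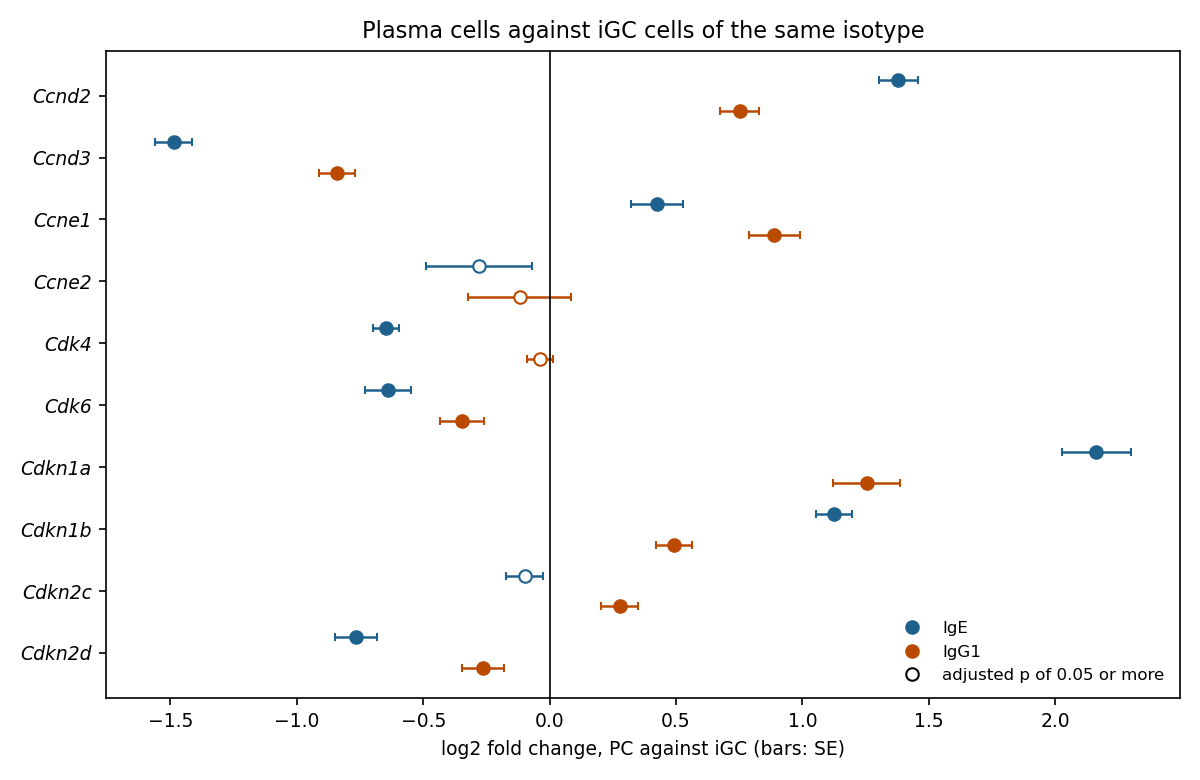
Log2 fold change from iGC to plasma cell for each gene in IgE (blue) and IgG1 (orange), with bars of 1 SE; filled points have an adjusted p under 0.05 and open points do not. The IgE points of Ccnd2 (1.38), Cdkn1a (2.16) and Cdkn1b (1.13) lie to the right of the IgG1 points (0.75, 1.25 and 0.49), and those of Ccnd3 (-1.49), Cdk4 (-0.65) and Cdkn2d (-0.77) to the left (-0.84, -0.04 and -0.26).

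Comparing the plasma cells directly, IgE PC had more Ccnd2, Cdkn1a and Cdkn1b and less Ccnd3, Ccne1, Cdk4, Cdk6 and Cdkn2d than IgG1 PC, so that 8 of 10 were called, 3 higher and 5 lower, where 58.1% of all genes were, 27.4% higher and 30.7% lower. The ranges of the 3 libraries did not overlap for any of these 8 and overlapped for the other 2, where 59.2% of all genes tested had ranges that did not overlap. Fibroblast markers also differed here, with 9 of 10 tested lower in IgE PC. So did the markers of cell state, with 10 of 12 plasma cell markers higher and 7 of 12 B cell markers lower in IgE PC. The part of these marker differences was not tested. None of the 10 genes differed by 1 log2 unit or more, against 21.1% of all genes tested. The calls for Ccne1 and Cdkn2d were not stable: each was lost with DESeq2, with DESeq2's size factors and without immunoglobulin genes, and that of Cdkn2d also with no filter and with only the groups compared. Leaving out any single IgE PC library, or IgG1 PC replicate 1, ended both calls, as did IgG1 PC replicate 2 for Ccne1 and replicate 3 for Cdkn2d.

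Among the D-type cyclins, Ccnd2 (cyclin D2, ENSMUSG00000000184, chr6:127125162-127152193, minus strand, GRCm38) was the most abundant of the 10 genes on day 6, at 441 ± 32.1 TPM (SD, n = 3), a unit that corrects for length and so allows genes to be compared. Its counts were 938, 1091 and 1055 CPM in the 3 day 6 libraries, 230, 229 and 195 in IgE iGC, and 236, 229 and 213 in IgG1 iGC. They were 587, 569 and 548 CPM in IgE PC and 368, 405 and 367 in IgG1 PC. The order was therefore day 6, IgE PC, IgG1 PC and then the iGC groups, with no overlap between neighbours except between the 2 iGC groups. From day 6 Ccnd2 fell by 2.24 ± 0.079 on the log2 scale in IgE iGC (adjusted p = 3.42e-12) and by 2.19 ± 0.079 in IgG1 iGC (adjusted p = 4.64e-12). It was 2.60-fold higher in IgE PC than in IgE iGC (log2 1.38 ± 0.077, adjusted p = 2.61e-10) and 1.68-fold higher in IgG1 PC than in IgG1 iGC (0.75 ± 0.076, adjusted p = 7.06e-07), a step that was 0.24 and not called in log2 TPM. The difference between the steps was 0.63 ± 0.11 (adjusted p = 0.000283), and 0.23 without a call in log2 TPM by limma. IgE PC exceeded IgG1 PC by 0.58 ± 0.076 (adjusted p = 1.09e-05), which in log2 TPM was 0.15 and not called. The count per TPM of Ccnd2, a measure described below for Ccne2, was 1.13 of the day 6 value in IgE PC and 0.927 in IgG1 PC. The 3 IgG1 PC libraries ran from -0.35 to 0.068 in it on the log2 scale.

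Ccnd3 (cyclin D3, ENSMUSG00000034165, chr17:47505051-47599691, plus strand), the D-type cyclin that germinal centre B cells are known to need, took the opposite path at the plasma cell step. It stood at 202, 180 and 172 CPM on day 6, at 104, 100 and 94.2 in IgE iGC and at 95.3, 87.7 and 83.0 in IgG1 iGC. In plasma cells it was at 33.9, 37.4 and 35.3 CPM in IgE and at 51.0, 46.7 and 50.8 in IgG1. All 3 IgE PC libraries lay below all 3 IgG1 PC libraries, which lay below every iGC library. The step was a fall of 2.80-fold in IgE (log2 -1.49 ± 0.074, adjusted p = 6.07e-11) and of 1.79-fold in IgG1 (-0.84 ± 0.072, adjusted p = 1.05e-07), and these differed by -0.65 ± 0.10 (adjusted p = 0.000145). As a share of the summed TPM of the 2 genes, a measure that library scaling does not touch, Ccnd2 made up 72.3% ± 3.0 on day 6 (SD, n = 3), 51.0% ± 2.0 in IgE iGC and 54.7% ± 2.2 in IgG1 iGC. It made up 87.0% ± 1.0 in IgE PC and 79.6% ± 1.8 in IgG1 PC, and each of these ranges lay clear of those of the other groups.

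The third D-type cyclin, Ccnd1, which is not among the 10 and is typical of fibroblasts rather than B cells, was at 26.8 ± 7.6 TPM on day 6, 3.79 ± 0.40 in IgE iGC, 2.45 ± 1.1 in IgG1 iGC, 1.28 ± 0.43 in IgE PC and 4.44 ± 1.8 in IgG1 PC (SD, n = 3). Its order of groups was close to that of the summed fibroblast markers given above.

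The E-type cyclins were low, and Ccne1 rose at the plasma cell step. Ccne1 (cyclin E1, ENSMUSG00000002068, chr7:38097984-38107534, minus strand) was at 10.4, 9.74 and 9.92 CPM on day 6, 12.4, 12.7 and 14.2 in IgE iGC and 13.1, 10.8 and 10.3 in IgG1 iGC. It was at 17.9, 17.1 and 17.6 CPM in IgE PC and at 24.1, 21.1 and 18.4 in IgG1 PC, so that every plasma cell library was above every other library. Against day 6 it was 2.11-fold higher in IgG1 PC (log2 1.08, adjusted p = 1.41e-07), which was 0.22 and not called in log2 TPM. Its step was larger in IgG1 (0.89 ± 0.10, adjusted p = 2.57e-06) than in IgE (0.42 ± 0.10, adjusted p = 0.00194), with an interaction of -0.46 ± 0.14 (adjusted p = 0.0171). The IgE step was -0.05 with total-count scaling and -0.24 in log2 TPM, neither called, and the IgG1 step was 0.26 and not called in log2 TPM, so the rise of Ccne1 in IgE holds relative to most genes and not per unit of total RNA counted. Ccne1 in IgE PC against day 6 was likewise 0.81 ± 0.10 by TMM (adjusted p = 3.12e-06) and -0.10 in log2 TPM.

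Ccne2 (cyclin E2, ENSMUSG00000028212, chr4:11191351-11204779, plus strand) was at 16.7 to 18.7 CPM on day 6, 11.0 to 16.8 in IgE iGC, 13.3 to 17.8 in IgG1 iGC, 9.95 to 13.8 in IgE PC and 10.9 to 19.2 in IgG1 PC. Neighbouring groups overlapped at every place in the order. By TMM it was called in 1 of the 9 comparisons, IgE PC against day 6 (-0.56 ± 0.21, adjusted p = 0.0240), and that call was lost without day 6 replicate 3 or IgE PC replicate 2 or 3, without immunoglobulin genes and with no filter. Other settings called it lower more often. The IgE step was -0.28 by TMM and not called, but -0.75 with total-count scaling and -1.08 in log2 TPM, both called. IgG1 PC against day 6 went from -0.32 to -0.60 and -0.56 in these settings, both called, and IgE PC against IgG1 PC from -0.23 to -0.79 in log2 TPM, called, and -0.49 with total-count scaling, not called. The top of the IgG1 PC range was replicate 2 at 19.2 CPM, against 11.7 and 10.9 in the others. Without that library Ccne2 was lower in IgG1 PC than in IgG1 iGC by -0.45 and called, where with it the difference was -0.12 ± 0.20 and not called (95% interval -0.57 to 0.34). Its count per TPM, which follows the effective transcript length behind the deposited TPM, was 0.699 of the day 6 value in IgG1 PC once set against the other genes of each library, a departure larger than that of 99.1% of 9027 genes.

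Cdk4 (ENSMUSG00000006728, chr10:127063534-127067920, plus strand), the D-cyclin kinase with the higher TPM in every group, fell in IgE at the plasma cell step, with no call in IgG1. It was at 141, 135 and 147 CPM on day 6, 182, 179 and 170 in IgE iGC, 183, 170 and 172 in IgG1 iGC, and 169, 169 and 173 in IgG1 PC. In IgE PC it was at 112, 117 and 110 CPM, below every other library. The IgG1 PC libraries thus overlapped both iGC groups and the IgE PC libraries overlapped none. The step was -0.65 ± 0.051 in IgE (adjusted p = 1.78e-08) and -0.04 ± 0.051 in IgG1 (95% interval -0.15 to 0.08, adjusted p = 0.555), and the interaction was -0.61 ± 0.072 (adjusted p = 1.07e-05). IgE PC was 1.51-fold below IgG1 PC (-0.59 ± 0.051, adjusted p = 1.49e-07). With total-count scaling the IgG1 step was -0.27 and in log2 TPM -0.64, both called, while the IgE step stayed larger. Against day 6 Cdk4 was slightly higher in IgE iGC (0.33 ± 0.051) and in IgG1 iGC (0.31 ± 0.051), calls lost in log2 TPM (0.13 and 0.15), and in IgG1 PC (0.27 ± 0.051). It was lower in IgE PC (-0.32 ± 0.051, adjusted p = 3.91e-05); the IgG1 PC value turned to -0.0080 with total-count scaling and to -0.48 in log2 TPM.

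The 250 bases upstream of the Cdk4 start in RefSeq (GRCm38.p6, chr10:127063285-127063534, plus strand) are shown because IgE PC lay below every other library for Cdk4 and because the window holds 4 copies of the E-box CACGTG, the palindrome bound by MYC and related factors, which are set in capitals.
Cdk4 upstream: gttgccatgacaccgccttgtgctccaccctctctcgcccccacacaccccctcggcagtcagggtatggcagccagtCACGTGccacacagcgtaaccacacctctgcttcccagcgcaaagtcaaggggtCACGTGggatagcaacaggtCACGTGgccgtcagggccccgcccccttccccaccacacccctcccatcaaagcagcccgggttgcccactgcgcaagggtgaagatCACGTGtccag
The copies begin 172, 118, 98 and 11 bases before the start. At least 1 copy was present in 6.02% of 32851 RefSeq windows of this length, and at least 4 in 0.0213%. Windows were available for 8 of the 10 genes, none for Ccnd2 and Ccne2, and Cdk6 held 1 E-box, 220 bases before its start. None of the 11 windows of these 8 genes held any of the E2F sites TTTCCCGC, TTTGGCGC, TTTCGCGC or TTTGCCGC on either strand, present in 1.86% of all windows. These are matches of letters only.

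Cdk6 (ENSMUSG00000040274, chr5:3341485-3531008, plus strand), the other D-cyclin kinase, was a gene of the day 6 culture. It was at 223, 232 and 229 CPM there, at 49.4, 48.4 and 51.0 in IgE iGC and at 56.7, 49.9 and 52.0 in IgG1 iGC. In plasma cells it was at 32.3, 33.0 and 30.1 CPM in IgE and at 34.2, 47.1 and 43.1 in IgG1. Every day 8 library was thus far below every day 6 library, by 4.60-fold in IgE iGC (log2 -2.20 ± 0.090, adjusted p = 1.52e-11) and 4.31-fold in IgG1 iGC (-2.11 ± 0.089, adjusted p = 2.48e-11). The step to plasma cells was a further fall of 0.64 ± 0.090 in IgE (adjusted p = 1.35e-05) and of 0.35 ± 0.088 in IgG1 (adjusted p = 0.00340). These steps differed by -0.29 ± 0.13, which did not pass (adjusted p = 0.0745, 95% interval -0.57 to -0.01), but did with total-count scaling (-0.54) or without IgG1 PC replicate 1 (-0.41). IgE PC was below IgG1 PC by -0.39 ± 0.090 (adjusted p = 0.00178), a call lost in log2 TPM (-0.41). Per length, Cdk4 held 85.9% ± 0.9 of the summed TPM of the 2 kinases on day 6 (SD, n = 3) and between 97.1% and 98.6% in every day 8 library. The count per TPM of Cdk6 was 1.23 of the day 6 value in IgE PC and 1.25 in IgG1 PC, by the measure described for Ccne2, so its TPM fell further than its count.

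**Figure D3:**
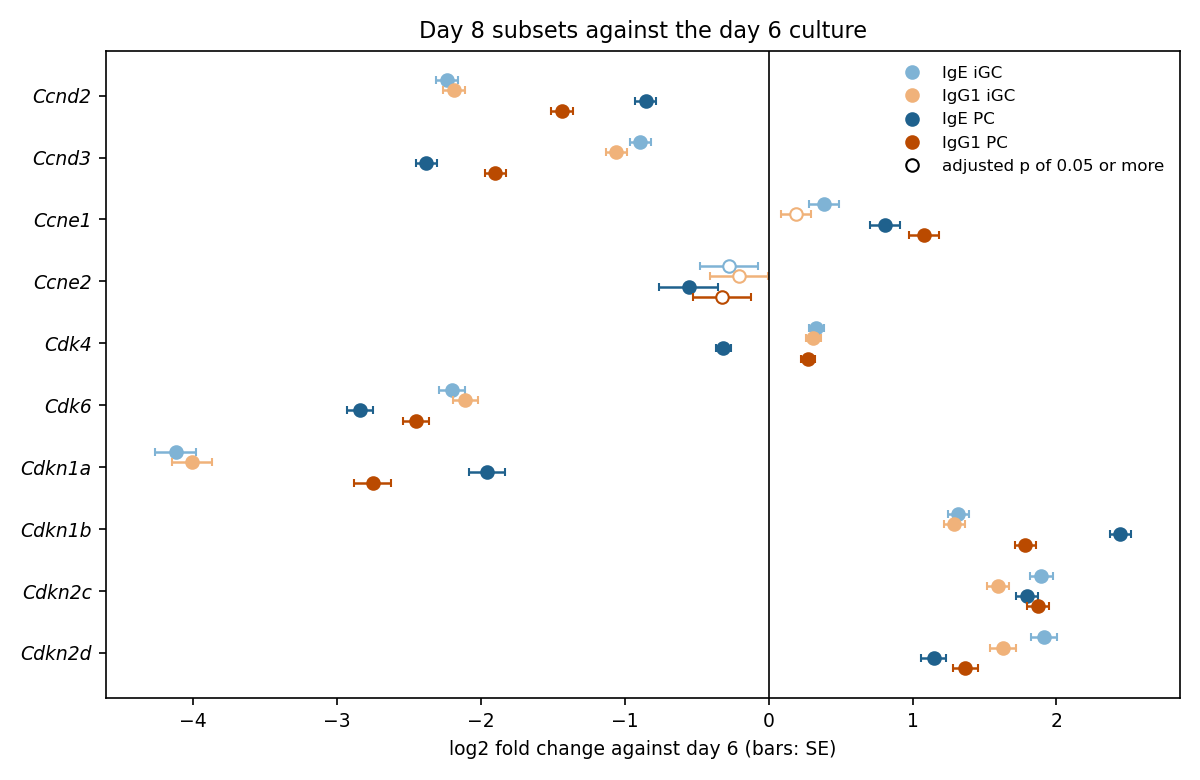
Log2 fold change of each gene in the 4 sorted day 8 groups against the day 6 culture, with bars of 1 SE; open points have an adjusted p of 0.05 or more. Cdkn1a lies furthest to the left, at -4.12 in IgE iGC and -4.01 in IgG1 iGC, and Cdkn1b furthest to the right, at 2.44 in IgE PC; all 4 values share the same day 6 libraries.

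Cdkn1a (p21, ENSMUSG00000023067, chr17:29090976-29100727, plus strand), an inhibitor that is induced by p53 and also by growth signals, had the widest range of the 10 genes, 17.7-fold between its highest and lowest group means. It was at 182, 203 and 214 CPM on day 6, at 11.8, 12.7 and 9.40 in IgE iGC and at 12.4, 13.2 and 11.6 in IgG1 iGC. In plasma cells it was at 54.8, 49.3 and 49.7 CPM in IgE and at 34.1, 22.9 and 32.1 in IgG1. The groups did not overlap except for the 2 iGC groups. Cdkn1a fell 17.4-fold from day 6 to IgE iGC (log2 -4.12 ± 0.14, adjusted p = 3.93e-12) and 16.1-fold to IgG1 iGC (-4.01 ± 0.14, adjusted p = 4.94e-12). It was then 4.48-fold higher in IgE PC than in IgE iGC (2.16 ± 0.14, adjusted p = 1.56e-09) and 2.39-fold higher in IgG1 PC than in IgG1 iGC (1.25 ± 0.13, adjusted p = 1.45e-06), a difference of 0.91 ± 0.19 (adjusted p = 0.00138). IgE PC exceeded IgG1 PC by 0.79 ± 0.13 (adjusted p = 7.72e-05), and this value was 0.52 to 0.85 over the 8 other scalings and tests.

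Cdkn1a has 2 upstream RefSeq windows, 1 for each of its starts. The first (GRCm38.p6, chr17:29090729-29090978, plus strand) is shown because Cdkn1a is a textbook target of p53. Its capitals mark 2 matches to the 10-base consensus bound by 1 pair of p53 subunits. These begin 73 and 51 bases before the first start.
Cdkn1a upstream: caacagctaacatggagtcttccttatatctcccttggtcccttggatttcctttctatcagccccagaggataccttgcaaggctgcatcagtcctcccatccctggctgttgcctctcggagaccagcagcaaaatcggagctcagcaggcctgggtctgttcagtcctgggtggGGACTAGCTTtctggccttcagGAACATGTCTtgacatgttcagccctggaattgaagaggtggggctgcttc
At least 1 such match was present in 7.13% of the 32851 windows and at least 2 in 0.259%. The full p53 consensus of 20 bases with no spacer was searched first and was in none of the 11 windows and in 3 of all windows. The shorter search followed with the sequences in view. Only exact matches were counted, and the 10 bases right after the second marked match differ from the 10-base consensus at their first base alone. Of the other windows, 1 upstream of Cdkn2d held 1 match, and the second window of Cdkn1a (chr17:29093519-29093768, plus strand) held none.

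Cdkn1b (p27, ENSMUSG00000003031, chr6:134920401-134925513, plus strand), the CIP/KIP inhibitor of resting lymphocytes, ran opposite to Cdkn1a between day 6 and iGC and alongside it at the plasma cell step. It was at 26.3, 24.7 and 26.7 CPM on day 6, at 65.2, 64.4 and 64.2 in IgE iGC and at 67.3, 62.0 and 60.9 in IgG1 iGC. It reached 142, 126 and 155 CPM in IgE PC and 86.2, 94.8 and 86.5 in IgG1 PC. IgE PC was above all other libraries, IgG1 PC above all iGC libraries and day 6 below all. Against day 6 the rise was 5.44-fold in IgE PC (2.44 ± 0.074, adjusted p = 1.87e-13). The plasma cell step was 1.13 ± 0.071 in IgE (adjusted p = 1.02e-09) and 0.49 ± 0.070 in IgG1 (adjusted p = 2.40e-05), with a difference of 0.63 ± 0.099 (adjusted p = 0.000133). The call of the IgG1 step was kept with total-count scaling (0.26) and lost in 1 of the 8 other scalings and tests, log2 TPM (-0.01), while the IgE step was 0.65 and 0.43 in these and called in both. IgE PC exceeded IgG1 PC by 0.66 ± 0.070 (adjusted p = 1.15e-06).

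Because Cdkn1a and Cdkn1b changed in opposite directions after day 6, the makeup of the CIP/KIP pair turned over. Cdkn1a made up 93.0% ± 0.7 of their summed TPM on day 6 (SD, n = 3), 23.7% ± 2.8 in IgE iGC and 26.4% ± 2.0 in IgG1 iGC. It was 37.3% ± 2.5 in IgE PC and 36.1% ± 5.5 in IgG1 PC, which overlapped, so the inhibitors differed between isotypes in amount without a separation of this ratio.

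**Figure D4:**
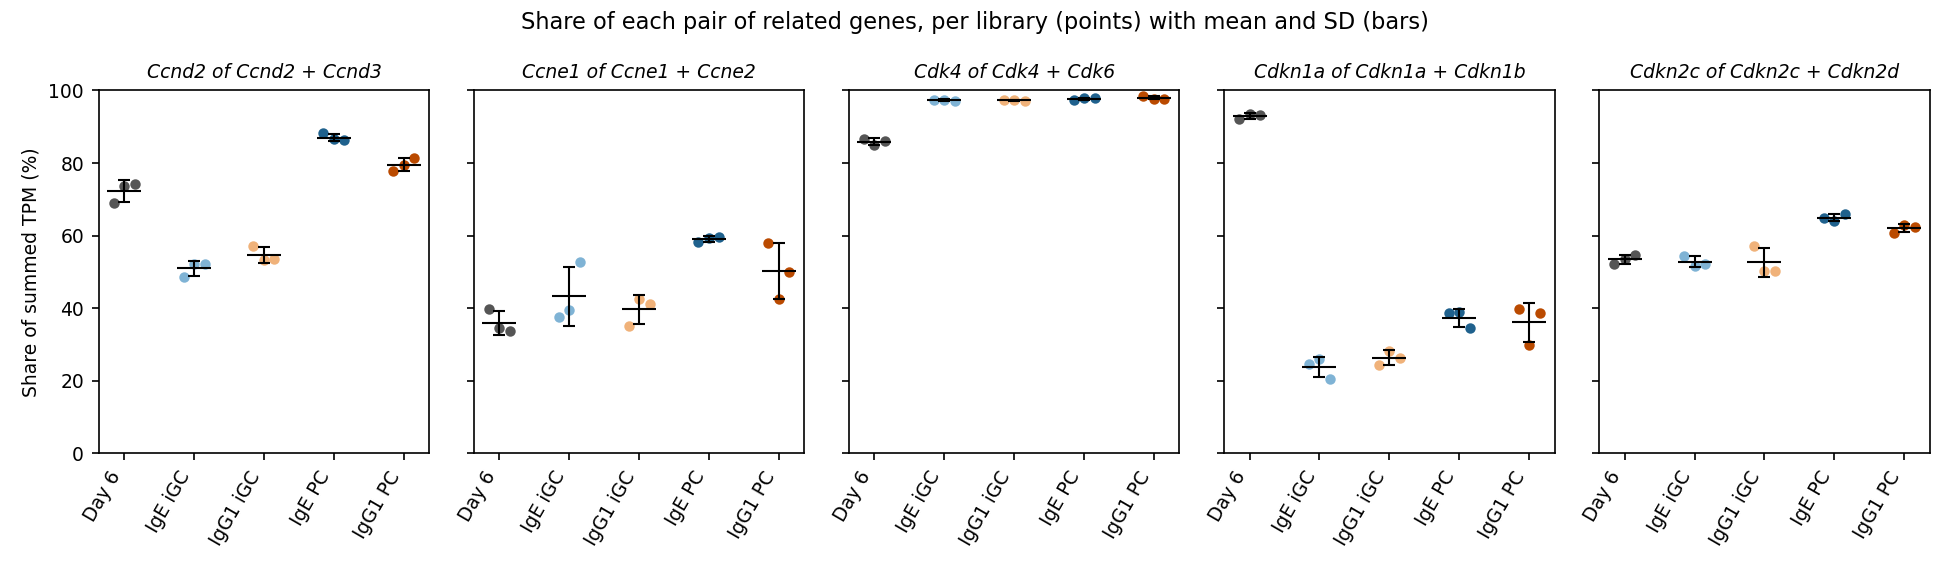
Share of each pair's summed TPM (percent, axis from 0 to 100) held by the first gene of the pair in each library (points), with group mean and SD (bars). Ccnd2 holds 72.3% on day 6, 51.0% and 54.7% in iGC and 87.0% and 79.6% in PC; Cdkn1a holds 93.0% on day 6 and between 20.6% and 39.7% in every day 8 library.

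Among the INK4 inhibitors, Cdkn2c (p18, ENSMUSG00000028551, chr4:109660876-109667189, minus strand) rose after day 6 and then stayed in a narrow band. It was at 9.58, 8.70 and 8.68 CPM on day 6, 36.0, 32.6 and 31.5 in IgE iGC and 29.3, 25.8 and 26.3 in IgG1 iGC. It was at 29.4, 31.0 and 33.2 CPM in IgE PC and at 32.0, 32.0 and 34.6 in IgG1 PC. Against day 6 the rise was 1.89 ± 0.078 in IgE iGC, 1.59 ± 0.078 in IgG1 iGC, 1.80 ± 0.078 in IgE PC and 1.87 ± 0.078 in IgG1 PC, with adjusted p-values of 1.11e-10 or lower. IgE iGC exceeded IgG1 iGC by 0.30 ± 0.074 (adjusted p = 0.0314), the call of this comparison that was lost with other settings as given above. The plasma cell step was 0.28 ± 0.073 in IgG1 (adjusted p = 0.00437), which was 0.048 and not called with total-count scaling and turned to -0.30 in log2 TPM, called there. In IgE it was -0.10 ± 0.074 (adjusted p = 0.257, 95% interval -0.26 to 0.07), which became -0.57 with total-count scaling and -0.73 in log2 TPM, both called. The difference between the steps was -0.38 ± 0.10 (adjusted p = 0.00877) and was called in all 8 other scalings and tests, at -0.62 to -0.32. IgE PC and IgG1 PC overlapped, with a difference of -0.08 that was -0.33 and called with total-count scaling.

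Cdkn2d (p19, ENSMUSG00000096472, chr9:21288410-21291407, minus strand) also rose after day 6 but fell at the plasma cell step. It was at 7.15, 5.99 and 5.79 CPM on day 6, 24.4, 23.7 and 23.2 in IgE iGC and 17.9, 19.7 and 21.1 in IgG1 iGC. It was at 13.9, 14.1 and 14.0 CPM in IgE PC and 17.1, 15.03 and 16.8 in IgG1 PC, with no overlap between any neighbours in the order. The step was -0.77 ± 0.085 in IgE (adjusted p = 8.74e-07) and -0.26 ± 0.083 in IgG1 (adjusted p = 0.0134, lost without IgG1 iGC replicate 3 and with only the groups compared), and the difference was -0.50 ± 0.12 (adjusted p = 0.00311). The isotypes did not overlap in iGC either, but the difference of 0.28 ± 0.083 did not pass (adjusted p = 0.0756), though it did with DESeq2 and with only the groups compared.

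Over the 15 libraries the profiles of the 10 genes fell into a few shapes, described by Pearson's r of log2 CPM; the libraries share 5 groups, so these values mostly compare group means. Ccnd2 and Cdkn1a went together (r = 0.989), as did Cdkn2c and Cdkn2d (r = 0.904), whereas Ccnd3 and Cdkn1b ran opposite (r = -0.966). Among 8961 other genes at 10 CPM or more in a group, E2f3, an E2F factor, was most like Ccnd2 (r = 0.994), and Rptor, a subunit of the mTORC1 kinase complex, most like Cdkn1a (0.996). Rps6ka4 was most like Ccnd3 (0.994), Hspd1 most like Cdk6 (0.995), Serinc3 most like Cdkn1b (0.995), Sspn most like Cdkn2c (0.992), Adamts10 most like Cdkn2d (0.993) and Brip1os most like Ccne1 (0.959). For Ccne2 the highest value was 0.835, with Arl6ip6.

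The partners and targets of these regulators were taken from lists of the pathway. Of 20 S phase genes under E2F control, 17 were lower in IgE PC than in IgG1 PC, against 30.7% of all genes, and the other 3 were not called, with a median of -0.90 against -0.05 over all genes tested. Among the larger differences were those of the helicase subunits Mcm3 (-1.52) and Mcm5 (-1.26) and of the helicase partner Gins2 (-1.41). At the step from IgE iGC to IgE PC 16 of the 20 fell and 4 rose, with a median of -0.74, and at the IgG1 step 12 rose and 2 fell, with a median of 0.29. With total-count scaling these counts were 17 lower and 1 higher in IgE and 5 lower and 6 higher in IgG1, and in log2 TPM 19 lower in IgE and 12 lower and 3 higher in IgG1, so the direction in IgG1 differed between these settings. That of the difference between the steps did not: 18 of the 20 had a more negative step in IgE by the interaction term and the other 2 were not called (median -1.04), 20 with total-count scaling and 19 in log2 TPM.

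Of 14 pocket proteins, E2F and DP factors, 5 were higher and 7 lower in IgE PC than in IgG1 PC, against 27.4% higher and 30.7% lower over all genes. The retinoblastoma gene Rb1 (0.61) and Lin54 (0.72), a DNA-binding part of the DREAM repressor complex, were among those higher, and E2f1 (-0.85) and Tfdp1 (-0.87), the DNA-binding partner of E2F factors, among those lower. With total-count scaling the split was 2 higher and 7 lower.

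Of 12 genes for the degradation of G1 regulators, 7 were higher and 3 lower in IgE PC than in IgG1 PC, against the same 27.4% and 30.7% of all genes, or 1 and 5 with total-count scaling. Skp2, the receptor subunit of the ubiquitin ligase that marks p27 for degradation, was lower in IgE PC by -0.79, and its step was -0.96 in IgE and -0.07, not called, in IgG1. Its cofactor Cks1b rose at the step in both, by 1.37 in IgE and 1.24 in IgG1.

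Of 10 other G1 kinase, cyclin and inhibitor genes, 3 were higher and 2 lower in IgE PC than in IgG1 PC, which is no more than the 58.1% of all genes called, or 1 and 4 with total-count scaling. Cdk2, the kinase of E-type cyclins, was lower in IgE PC by -0.41 and fell at both steps, by 0.87 in IgE and 0.23 in IgG1. The INK4 genes Cdkn2a and Cdkn2b reached at most 3.95 TPM and 5.74 TPM in any library.

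Of 15 p53 targets, 12 fell and 2 rose from day 6 to iGC in both isotypes, with medians of -1.25 in IgE and -1.23 in IgG1 against -0.04 over all genes. Fibroblast markers fell there too, 8 of 10 tested in each isotype, and their part in the fall of the p53 targets was not tested. At the plasma cell step 6 rose and 4 fell in IgE and 6 rose and 2 fell in IgG1, or 4 and 8 and 6 and 5 with total-count scaling. In IgE the largest rises were those of Trp53inp1 (3.28), Sesn2 (2.34), Gadd45a (2.27) and Bbc3 (1.02), which are also known to respond to other stresses. The 4 that fell there were Sesn1 (-0.90), Phlda3 (-0.63), Aen (-0.34) and Bax (-0.32).

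**Figure D5:**
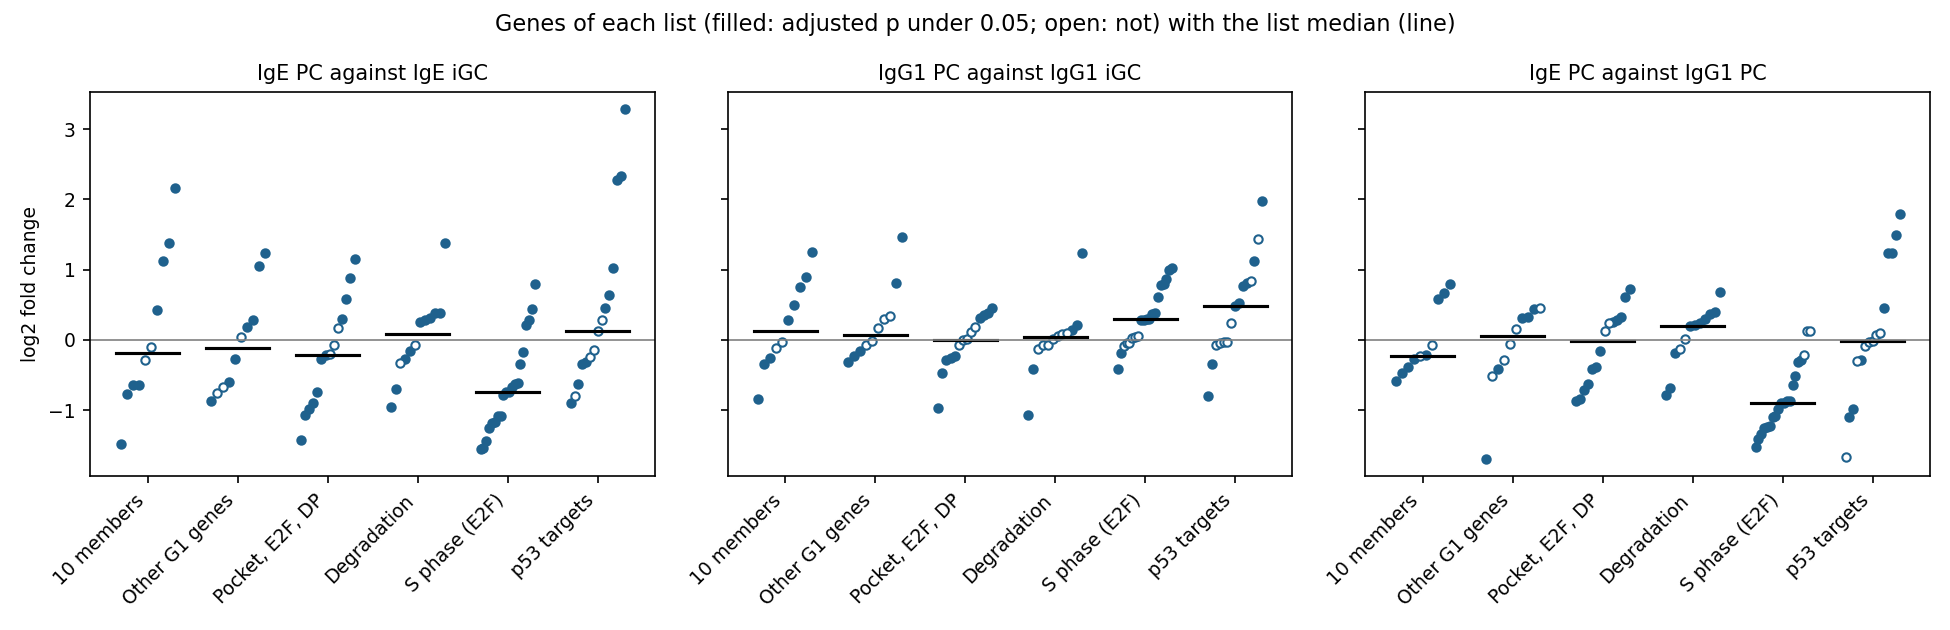
Log2 fold change of each gene of 6 lists (points; filled where the adjusted p is under 0.05) with the median of each list (black line), for the plasma cell step in each isotype and for IgE PC against IgG1 PC. The S phase list has medians of -0.74, 0.29 and -0.90, and the 10 genes described here spread on both sides of 0 in all 3 panels.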

How the data were processed

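RNA-seq of polyA RNA (KAPA mRNA HyperPrep, single-end, strand-specific reads of 76 bases, per the labels' protocols) gave 15 libraries in 5 groups of 3, grouped by title. The authors deposited 1 table of expected counts, RSEM's estimated counts per gene, and of TPM values, scaled for effective length and library total, per the file headers. Cutadapt 1.9.1, STAR 2.5.2a, RSEM 1.3.0, DESeq2 1.12.3 and GRCm38 are listed in the submitters' processing notes with no roles; the annotation and any filter are not given in the sources used here. Symbols came from a separate table of Ensembl names (51633 identifiers matched), and gene coordinates from GENCODE vM21 (GRCm38).

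Expected counts were rounded, and filterByExpr removed low genes (10 counts at the least, 15 in total). All 15 libraries were scaled by TMM and fitted with edgeR 4.0.16 in R 4.3.3 (glmQLFit with robust dispersion, glmQLFTest, 10 residual degrees of freedom). An SE is the size of a log2 fold change divided by the square root of F, and 95% intervals use 10 degrees of freedom. Log2 CPM had a prior count of 2, and log2 TPM a pseudocount of 1, which understates the change of low genes, on the deposited TPM values (limma 3.58.1). Library totals were 17.7 M to 54.1 M, with 182 or more counts for each of the 10 genes. Precision rests on these counts and on the spread between libraries of a group, 10.4% as the square root of edgeR's common dispersion. With no molecular identifiers, reads are not independent molecules. The fit was tested on simulated data, but the outcome is not reported here and no result rests on it. Alternatives were DESeq2 1.42.0, 3 other scalings, no filter, only the groups compared, a replicate block, TPM, and each library left out.

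The 10 genes and all lists were chosen with earlier results of these data known, and the motifs with the promoter sequences known. All 10 genes are named; of other lists, up to 4 called genes with the largest change in each direction per comparison and 10 key partner genes could be named. The gene most like a member is that with the highest correlation of log2 CPM, leaving out immunoglobulin segments, predicted genes and the other 9. Not every gene that could be named in this way is reported here.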

Additional observations from a re-analysis of the deposited data

Results flagged for a closer look

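The step from iGC to plasma cell differed between IgE and IgG1 for 8 of the 10 genes, by the interaction term of edgeR's quasi-likelihood fit over 12 libraries of the 4 sorted groups with the day 6 libraries in the same fit, where 42.9% of all 15692 genes were called. Of the fibroblast markers, 9 of 10 tested were lower in this term, as were 8 of 12 B cell markers. Of 12 plasma cell markers 5 were higher in it and 2 lower. The part of these marker differences was not tested. The log2 step in IgE minus that in IgG1 was 0.91 for Cdkn1a, 0.63 for Cdkn1b and 0.63 for Ccnd2. It was -0.65 for Ccnd3, -0.61 for Cdk4, -0.50 for Cdkn2d, -0.46 for Ccne1 and -0.38 for Cdkn2c. With the IgG1 PC libraries left out singly, as with any other library, between 8 and 9 of the 10 genes were called.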

How the results depend on the processing

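Each of the 90 results (10 genes in 9 comparisons) was recomputed in 8 other ways and with each of 15 libraries left out. The count of genes called moved by over 1.5 times in 1 comparison, IgE iGC against IgG1 iGC, where 1 became 2 with DESeq2, 0 with total-count scaling (edgeR), 2 with only the groups compared, 0 in log2 TPM (limma), and 0 to 2 with 1 library left out: 0 without IgE iGC replicate 1 or 2 or IgG1 iGC replicate 2 or 3, and 2 without day 6 replicate 1 or IgG1 PC replicate 1 or 2.

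With a replicate block all 90 results kept their direction and call, with 8 genes called in the interaction as without it. The numbers are shared by all groups but correlations of same-numbered deviations ran from -0.195 to 0.0842, so they were not taken to pair the libraries.

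Direction turned in 2 results with total-count scaling: Ccne1 in the IgE step, -0.046, and Cdk4 in IgG1 PC against day 6, -0.0080. It turned in 7 in log2 TPM: Ccne1 in the IgE step, -0.24, in IgG1 iGC against day 6, -0.033, and in IgE PC against day 6, -0.097; Cdk4 in IgG1 PC against day 6, -0.48, and between iGC groups, -0.020; Cdkn1b and Cdkn2c in the IgG1 step, -0.013 and -0.30. With 1 library left out, Ccne2 ran from -0.39 to 0.088 in IgE PC against IgG1 PC, from -0.45 to 0.038 in the IgG1 step and in the interaction from -0.32 to 0.15, the latter without IgG1 PC replicate 2. Between iGC groups the ranges were -0.090 to 0.026 for Ccnd2, -0.20 to 0.077 for Ccne2, -0.0025 to 0.052 for Cdk4 and -0.00083 to 0.071 for Cdkn1b. None of these left-out results was called in the full fit, and the cause was not tested. The lowest counts in any library were 182 for Cdkn1a, 212 for Ccne2 and 228 for Cdkn2d. In IgE PC against IgG1 PC the SEs of these genes were 0.13, 0.21 and 0.085. The lowest counts were taken over all 15 libraries and not over the PC libraries alone, so they say nothing on these SEs.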
